A study of Mus musculus with 2 samples.

Results

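The 8 genes described here carry out ascorbate (vitamin C) transport, its synthesis, and the electron transfer that keeps it reduced. They were taken by gene symbol: the transporter genes Slc23a1, Slc23a2 and Slc23a3, the synthesis genes Akr1a1, Rgn and Gulo, and the reductase genes Cyb561 and Cyb5r3. All 8 were found among the 55536 annotated genes of the gene tables. The series holds 1 group of 2 libraries of total RNA from adrenal gland tissue. The tissue came from male B6CASTF1/J mice (an F1 hybrid of C57BL/6J and CAST/EiJ) aged 36 days, with no treatment named. The libraries are called replicate 1 and replicate 2 after the biological replicate number in their labels. The biosample labels give each its own animal while both library descriptions name a single one, so the spread between the libraries may be technical in part. There is no contrast between conditions. What follows is the level of each gene in each library, its transcripts, and how far the libraries lay apart.

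Ascorbate is a reducing cofactor of copper and iron enzymes, and the adrenal gland is known as one of the organs richest in it. Cells take up ascorbate with sodium through transporters of the SLC23 family, and take up its oxidized form, dehydroascorbate, through glucose transporters. Mice make their own ascorbate from glucuronate, a route that ends with L-gulonolactone oxidase and is best known from the liver, whereas humans have lost the last enzyme. In chromaffin cells of the medulla, cytochrome b561 passes electrons across the granule membrane to the ascorbate that dopamine beta-hydroxylase uses to make noradrenaline.

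Depth was 35813366 expected counts for replicate 1 and 30628771 for replicate 2, summed over the gene table of each. All 6 cortex markers and all 6 chromaffin cell markers reached 1 TPM (a level per transcript length, scaled to the same total in every library) in both libraries. The cortex list summed to 14558 and 8134 TPM in replicates 1 and 2, led by Star and Hsd3b1, and the chromaffin cell list to 1435 and 1679 TPM, led by Chgb and Chga. Replicate 2 stood apart in markers of pancreas acinar cells. The 6 of them added up to 2.04 TPM in replicate 1 and 6774 TPM in replicate 2, led by Ctrb1 and Cela2a, and each was over 2-fold higher in replicate 2. In the gene tables, the share of TPM on nuclear protein-coding genes was 31.1% for replicate 1 and 23.2% for replicate 2. Their deposited TPM in those tables thus stands on a lower scale in replicate 2. In bulk tissue, fewer cells of a type and less RNA per cell cannot be told apart.

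Of the 8 genes, 5 reached 1 TPM in both libraries: Akr1a1, Cyb5r3, Slc23a2, Cyb561 and Gulo. All 8 together made up 0.161% of nuclear coding TPM in replicate 1 and 0.135% in replicate 2. The order of levels was Akr1a1 then Cyb5r3 at the top of both libraries, followed by Slc23a2 and Cyb561, which changed places between the libraries. Gulo and then Rgn followed in both, and Slc23a3 and Slc23a1 lay at the bottom and also changed places.

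**Figure D1:**
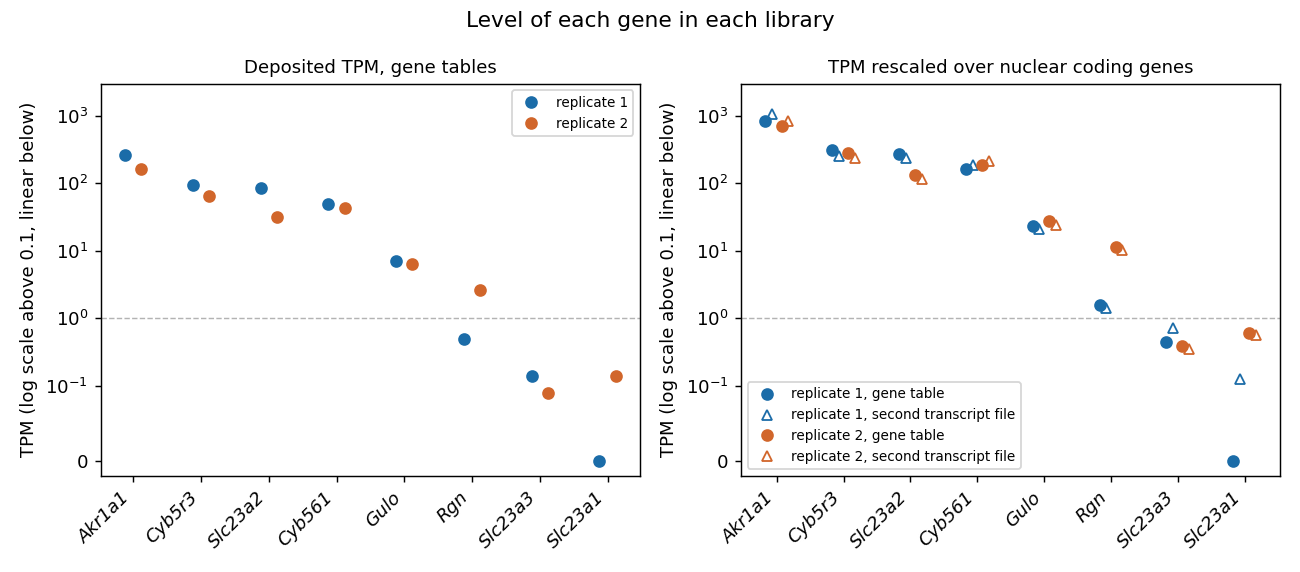
Level of each gene as TPM on an axis that is logarithmic above 0.1, with replicate 1 in blue and replicate 2 in orange; the dashed line is 1 TPM. The left panel shows deposited TPM, the right panel TPM rescaled over nuclear protein-coding genes from the gene tables (circles) and from the second transcript file (triangles), and in both panels the points of Rgn lie wide apart, at 0.49 and 2.61 deposited TPM in replicates 1 and 2, while those of Gulo nearly meet, at 7.17 and 6.38.

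Slc23a2, the sodium-dependent transporter that brings ascorbate into most cells and that mice are known to need for adrenal ascorbate, carried nearly all SLC23 RNA. It stood at 85.3 TPM in replicate 1 and 31.3 TPM in replicate 2 (mean 58.3 ± 38.1, SD, n = 2), from 13674 and 5402 expected counts. Among 22015 nuclear protein-coding genes it ranked 605 in replicate 1 and 1278 in replicate 2. With TPM rescaled over those genes alone, the values were 275 and 135. The gene (ENSMUSG00000027340.15) lies on chromosome 2, 132052496 to 132145108, minus strand, on mm10. Its main transcript, Slc23a2-201, has 16 exons and a coding sequence of 648 codons and held 69.9% and 68.8% of the gene TPM in replicates 1 and 2, and 70.9% and 70.3% in the second transcript file. The short Slc23a2-203 starts at a first exon of its own (chromosome 2, 132111342 to 132111448), inside the first intron of Slc23a2-201. It held 19.2% and 23.1% of the gene TPM in replicates 1 and 2, which came from 162 and 78.9 expected counts on 379 bases, against 13194 and 5243 for Slc23a2-201.

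The 250 bases before the annotated start of Slc23a2-201 (chr2:132145109-132145358, minus strand, GRCm38.p6, from the RefSeq promoter table) are shown because this start served the transcript with most of the gene's RNA. Capitals mark the GC box GGGCGG or its reverse complement CCGCCC.
Slc23a2: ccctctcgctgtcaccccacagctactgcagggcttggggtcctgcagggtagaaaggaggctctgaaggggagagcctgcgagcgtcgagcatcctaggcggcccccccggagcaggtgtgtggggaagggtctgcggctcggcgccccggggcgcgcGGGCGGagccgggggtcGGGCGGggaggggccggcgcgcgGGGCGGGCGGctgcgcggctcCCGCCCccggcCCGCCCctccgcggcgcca
A search on both strands found 6 such matches, of which 1 pair overlaps, and GGGCGG was present in 32.7% of 32817 promoter windows of the same length. The sequence AAGGTCA, the half-site read by the adrenal nuclear receptor NR5A1, had 0 matches in these 250 bases and was present in 4.08% of windows. Of the 8 genes, 3 have entries in this table (Slc23a2, Slc23a3 and Akr1a1), and the other windows of these 3 genes held neither sequence.

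The other SLC23 genes were near the limit of detection. Slc23a1, the ascorbate transporter of gut, kidney and liver epithelium (ENSMUSG00000024354.13, chromosome 18, 35614604 to 35627244, minus strand), had 0 expected counts in replicate 1 and 10 in replicate 2, or 0 and 0.14 TPM. A count of 0 allows up to 3 counts, for counting error only. In the second transcript file Slc23a1 held 5.05 and 18.4 estimated counts in replicates 1 and 2, all on Slc23a1-201, so the 0 of replicate 1 depends on the file. The gene overlaps Paip2 on the opposite strand, which stood at 68.7 and 49.9 TPM. Slc23a3, an orphan relative of the ascorbate transporters (ENSMUSG00000026205.8, chromosome 1, 75125541 to 75133890, minus strand), had 10 counts in replicate 1 and 7 in replicate 2, or 0.14 and 0.09 TPM. The first transcript file put all of them on Slc23a3-201, and the second gave 51.6% of the TPM in replicate 1 and 92.5% in replicate 2 to it and the rest to Slc23a3-202, which holds a retained intron. Within replicate 2, Slc23a2 stood 224 times above Slc23a1 in TPM. Kidney tubule markers, most of them of the proximal tubule, summed to 0.24 and 0.25 TPM in replicates 1 and 2, led by Lrp2 and Cubn. Slc34a1, Slc22a6, Slc5a2 and Kap had 0 counts in both libraries, and Umod, not a proximal tubule gene, had 0 and 4.

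Akr1a1, the aldehyde reductase that turns glucuronate into gulonate and also reduces many other aldehydes, was the highest of the 8. It stood at 261 TPM in replicate 1 and 166 TPM in replicate 2 (213 ± 67.2, n = 2), from 11091 and 7909 counts, and ranked 141 and 194 among nuclear protein-coding genes in replicates 1 and 2. Rescaled over those genes the values were 840 and 714. The gene (ENSMUSG00000028692.14) lies on chromosome 4, 116636510 to 116651680, minus strand. Akr1a1-201, with 9 exons and 325 codons, held 87.1% and 89.6% of the gene TPM in replicates 1 and 2 in the first transcript file, but 61.0% and 69.2% in the second. The difference went to Akr1a1-202, a noncoding transcript of 412 bases that lies over the 3′ exons of Akr1a1-201, with 12.02% and 9.72% in the first file and 38.5% and 30.2% in the second.

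Gulo, the L-gulonolactone oxidase that completes ascorbate synthesis, was expressed in both libraries at close values. It stood at 7.17 TPM in replicate 1 and 6.38 TPM in replicate 2 (6.78 ± 0.559, n = 2), from 548 and 536 counts. It ranked 7132 and 6558 among nuclear protein-coding genes in replicates 1 and 2. Rescaled over those genes the values were 23.1 and 27.5, so that replicate 2 was the higher. The second transcript file gave 601 and 562 estimated counts and 12.5 and 14.2 TPM. The gene (ENSMUSG00000034450.8) lies on chromosome 14, 65986786 to 66009207, minus strand, overlaps no other annotated gene and has 1 transcript, Gulo-201, with 12 exons. Its coding sequence in the annotation is an open frame of 440 codons with 0 stop codons inside. The first 60 coding bases are shown as the start of the frame that mice keep, with the start codon in capitals (chromosome 14, 66009045 to 66009047, minus strand, mm10, from the GENCODE M21 transcripts).
Gulo-201: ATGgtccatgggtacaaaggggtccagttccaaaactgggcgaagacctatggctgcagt
Akr1a1 stood 36.4 times above Gulo in replicate 1 and 26.0 times in replicate 2, so the first enzyme of the route was far above the last in both.

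Rgn, regucalcin, the lactonase that makes L-gulonolactone from gulonate, was the member with the largest difference between the libraries among the 6 tested. It stood at 0.49 TPM in replicate 1 and 2.61 TPM in replicate 2 (1.55 ± 1.5, n = 2), from 26 and 153 counts. The second transcript file gave 27 and 160 estimated counts. Replicate 2 was the high library in both files, by 7.07-fold after scaling (95% exact interval 4.72 to 11.3, counting error only), a log2 ratio of 2.82. The gene (ENSMUSG00000023070.6, chromosome X, 20549787 to 20562089, plus strand) has 1 transcript of 7 exons. Gulo stood 14.6 times above Rgn in replicate 1 and 2.44 times in replicate 2.

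Liver is a main site of Rgn and Gulo in mice, and most liver marker genes differed in level between the libraries. All 10 liver markers were higher in replicate 2 (9 of 10 when scaled by spike-in counts), 9 of them by at least 2-fold, with a median log2 ratio of 3.29 against 0.01 for all genes tested. Added up, they held 80.9 TPM in replicate 1 and 199.8 TPM in replicate 2, and 5 of the 10 reached 1 TPM in both. Transferrin, Trf, made up most of the sum in replicate 1, at 64.9 and 60.1 TPM in replicates 1 and 2. Albumin, Alb, stood at 7.24 and 51.4 TPM in replicates 1 and 2, a log2 ratio of 3.25. Rgn was at 0.0677 of Alb in replicate 1 and 0.0507 in replicate 2. Gulo was at 0.990 of Alb in replicate 1 and 0.124 in replicate 2. The ratio to Alb moved less between the libraries for Rgn than for Gulo. Alb is 1 of the 10 markers, whose log2 ratios ran from 0.39 (Trf) to 4.18 (Apoa2). The part of liver or pancreas RNA in the Rgn difference or in the level of Gulo was not tested.

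Cyb561, the cytochrome b561 of chromaffin granules, stood at 49.9 TPM in replicate 1 and 42.9 TPM in replicate 2 (46.4 ± 4.94, n = 2), from 3969 and 3646 counts. It ranked 1117 and 890 among nuclear protein-coding genes in replicates 1 and 2. Rescaled over those genes the values were 161 and 184, so that replicate 2 was the higher. The gene (ENSMUSG00000019590.16) lies on chromosome 11, 105933702 to 105953336, minus strand. Dbh, the enzyme that its electrons serve, was at 99.9 and 112 TPM, so Cyb561 stood at 0.499 of Dbh in replicate 1 and 0.384 in replicate 2, or 0.633 and 0.485 in the second transcript file. Against Pam, the peptide-amidating enzyme that also draws on granule ascorbate, Cyb561 stood at 0.436 and 0.508. Of its 7 transcripts, Cyb561-201, with 250 codons, held 78.2% and 74.99% of the gene TPM in replicates 1 and 2 in the first file and 56.8% and 55.5% in the second. Cyb561-204, an incomplete coding model with an extra exon before the start codon (chromosome 11, 105940100 to 105940378), held between 19.4% and 21.5% in all 4 quantifications. Cyb561-203, noncoding, held 0.441% and 2.45% in the first file and 11.9% and 10.3% in the second.

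Cyb5r3 encodes the NADH-cytochrome b5 reductase, which with cytochrome b5 of the outer mitochondrial membrane returns the ascorbate radical to ascorbate and which in red cells keeps hemoglobin reduced. It stood at 96.2 TPM in replicate 1 and 65.0 TPM in replicate 2 (80.6 ± 22.1, n = 2), from 6655 and 4959 counts, at ranks 520 and 552. The gene (ENSMUSG00000018042.18) lies on chromosome 15, 83153494 to 83172592, minus strand. Its partner of the outer mitochondrial membrane, Cyb5b, was at 126 and 85.4 TPM, and Cyb5r3 stood at 0.761 and 0.760 of it in replicates 1 and 2. Against Cyb5a, the partner in the endoplasmic reticulum, Cyb5r3 stood at 0.879 and 0.911.

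Which Cyb5r3 transcript led depended on the file. Cyb5r3-201 held 16.4% and 18.2% of the gene TPM in replicates 1 and 2 in the first transcript file and 63.0% and 65.6% in the second. Cyb5r3-203 held 83.1% and 81.2% in the first file and 36.5% and 33.8% in the second. Within each file the libraries differed by under 3 percentage points. In counts, the first file put 1296 and 1068 expected counts on Cyb5r3-201 and 5322 and 3857 on Cyb5r3-203, and the second 5003 and 3852 on Cyb5r3-201 and 2286 and 1566 on Cyb5r3-203. Both transcripts have 9 exons and share 8 of them whole, 1941 bases in all. They differ only in the first exon, of 481 bases in Cyb5r3-201 (chromosome 15, 83172112 to 83172592) and 41 bases in Cyb5r3-203 (83170137 to 83170177). The choice decides the protein's start. Cyb5r3-201 encodes 301 codons and begins with the longer form of the enzyme, which is known to be anchored in membranes through its first residues, whereas Cyb5r3-203 encodes 278 codons and starts 23 codons further in. The coding starts are shown because they are where the transcripts part, with the 21 bases that lie in the exon of Cyb5r3-201 alone in capitals (mm10, minus strand, from the GENCODE M21 transcripts).
Cyb5r3-201: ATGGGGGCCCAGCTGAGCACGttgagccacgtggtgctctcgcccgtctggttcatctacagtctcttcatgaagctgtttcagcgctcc
Cyb5r3-203: atgaagctgtttcagcgctcc
The 21 bases of the second line are the last 21 of the first. The 48 bases between the capitals and that start codon lie in the shared second exon and are coding only in Cyb5r3-201.

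**Figure D2:**
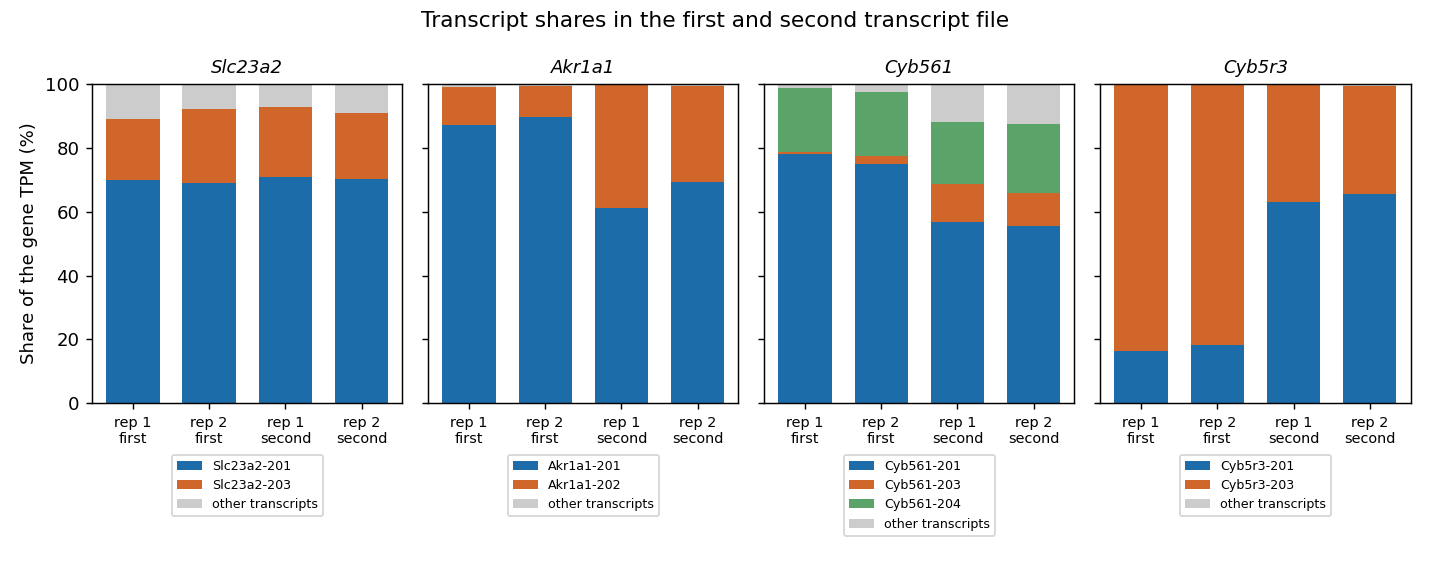
Share of the gene TPM in each transcript (percent, stacked to 100) for Slc23a2, Akr1a1, Cyb561 and Cyb5r3, in replicates 1 and 2 of the first and second transcript file; each colour is 1 transcript with at least 10% in either file and grey is the rest. The bars of Slc23a2 are alike in all 4 quantifications, and those of Cyb5r3 exchange their main colour between the files, with Cyb5r3-203 at 83.1% and 81.2% in the first and 36.5% and 33.8% in the second.

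Among the 6 genes with enough counts, the libraries lay farthest apart at Rgn and Slc23a2. Counts were scaled by TMM, and over 14780 genes with a mean of at least 1 CPM (a count scaled to the library size), 6.85% lay at least 2-fold apart between the libraries, 5.10% higher in replicate 2 and 1.75% higher in replicate 1. Of the 8 genes, 6 passed this filter, while Slc23a1 and Slc23a3 did not. Slc23a2 and Rgn, 2 of the 6, lay at least 2-fold apart. Rgn passed the filter only through replicate 2, the library where it is high, as its 26 counts in replicate 1 lie under 1 CPM. Its place among these 2 genes is thus a description and no support for a difference. No test between conditions exists for either gene. The scaled counts of Slc23a2 in replicate 1 were 2.07 times those in replicate 2 (exact 95% interval from 2.01 to 2.14, for counting error only), a log2 ratio of -1.05 that lies just past the 2-fold line and below the 5th percentile of all genes tested, -0.60. All 6 cortex markers were also higher in replicate 1, with a median log2 ratio of -0.33 and Star the farthest at -0.62, and Slc23a2 stood at 0.0153 of Star in replicate 1 and 0.0112 in replicate 2. All 5 erythroid markers were higher in replicate 1 too, with a median of -0.83 and summed levels of 3174 and 1358 TPM in replicates 1 and 2, as were all 6 macrophage markers, with a median of -0.25 and 122 and 72.9 TPM. The part of any of these cell types in the Slc23a2 difference was not tested. The other 4 genes lay between -0.20 (Akr1a1) and 0.26 (Gulo), with Cyb5r3 at -0.14 and Cyb561 at 0.16. The middle 50% of all genes tested lay between -0.20 and 0.29. All 6 chromaffin cell markers were higher in replicate 2 by TMM, but 1 of 6 by spike-in counts. Their median by TMM was 0.46, above the 0.16 of Cyb561.

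These directions are relative to the bulk of genes. Scaled by the spike-in counts instead, every log2 ratio falls by 0.89, so that Gulo and Cyb561 turn to -0.64 and -0.73, and 237 genes lie at least 2-fold higher in replicate 2 and 5281 in replicate 1, against 754 and 258 by TMM. Counts of genes 2-fold apart in the lists that follow are by TMM. By spike-in counts Rgn is still higher in replicate 2, with a log2 ratio of 1.93.

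**Figure D3:**
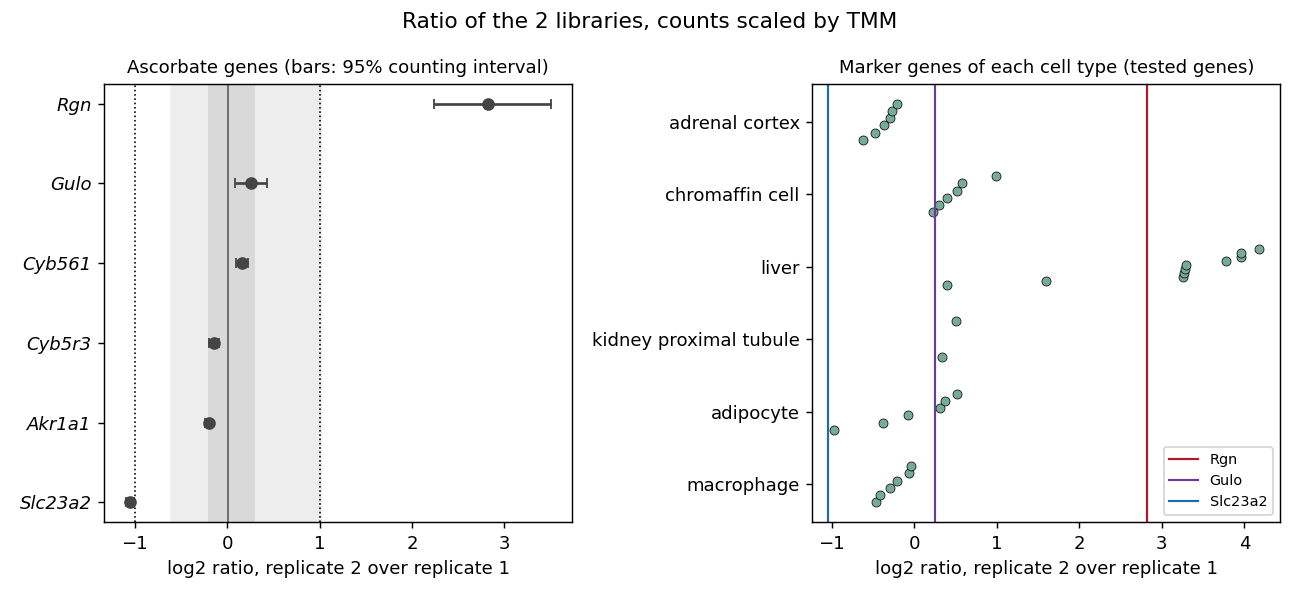
Log2 ratio of replicate 2 over replicate 1 after TMM scaling. The left panel gives the 6 tested genes with 95% counting intervals and the 2-fold lines (dotted). It also gives the middle 50% (dark grey) and the 5th to 95th percentiles (light grey) of 14780 genes. The right panel gives tested marker genes of 6 cell types as points. There the line of Rgn, at 2.82, lies between the liver markers Tat, at 1.60, and Alb, at 3.25. Of the other liver markers only Trf, at 0.39, lies below the line of Rgn. The line of Gulo, at 0.26, lies below all 10 liver markers.

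Genes around these 8 were described from lists of 48 genes, of which 39 reached 1 TPM in both libraries. Of these 48, 40 passed the CPM filter, and 1 of the 40 lay at least 2-fold apart, beside 6.85% of all genes tested. The median log2 ratio of the 40 was -0.01, beside 0.01 for all genes tested. With so few genes a list, a count of none 2-fold apart lies near the share over all genes and says nothing particular to that list. That gene was Tet1, a TET dioxygenase that oxidizes methylcytosine in DNA and uses ascorbate, at 0.62 TPM in replicate 1 and 1.38 TPM in replicate 2. Tet2 and Tet3 were at 11.9 and 7.62 TPM in replicate 1 and at 10.9 and 9.27 TPM in replicate 2.

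The 6 glucose transporters that carry dehydroascorbate summed to 42.2 TPM in replicate 1 and 34.0 TPM in replicate 2, beside 85.4 and 31.6 TPM for the SLC23 members. Of these 6, 4 reached 1 TPM in both libraries, and none of the 4 tested was 2-fold apart. Slc2a4, the insulin-responsive transporter of fat and muscle, led at 27.2 TPM in replicate 1 and 24.4 TPM in replicate 2, beside adipocyte markers that summed to 1922 and 1653 TPM, led by Fabp4 and Cfd. Slc2a8 stood at 5.69 and 4.4 TPM and Slc2a1, the transporter of most cells, at 6.11 and 2.85 TPM in replicates 1 and 2. In TPM, Slc23a2 stood 13.95 times above Slc2a1 in replicate 1 and 10.99 times in replicate 2. Slc2a2, the transporter of liver and islets, had 1 count in replicate 1 and 34 in replicate 2 and did not pass the filter. The remaining SLC23 gene, Slc23a4, had 4 and 6 counts.

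Enzymes known to reduce dehydroascorbate were present, 5 of 6 at 1 TPM or more in both libraries and none of 5 tested at least 2-fold apart. P4hb, a protein disulfide isomerase that is also a subunit of prolyl hydroxylase, led at 173 TPM in replicate 1 and 125 TPM in replicate 2. Thioredoxin, Txn1, stood at 98.7 and 62.5 TPM, and the glutathione transferase Gsto1 at 27.8 and 22.3 TPM. The relatives of Cyb561 were low, with all 4 at 1 TPM or more and none of them 2-fold apart. The highest, Cyb561a3, which is known from lysosomes, stood at 5.37 and 4.78 TPM, Cyb561d2 at 5.04 and 4.33 TPM and Frrs1, a ferric reductase, at 1.95 and 2.74 TPM. Of the cytochrome b5 genes and other reductases, 5 of 6 reached 1 TPM in both libraries and none of 5 tested was 2-fold apart. They were led by Cyb5b and Cyb5a, followed by Cyb5r4 at 13.0 and 8.07 TPM, while Cyb5r2 had 0 counts in both libraries.

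Genes that supply glucuronate or remove gulonate reached 1 TPM in both libraries in 5 of 6 cases, with none of 5 tested at least 2-fold apart. Akr1b3, aldose reductase, which shares substrates with Akr1a1, led at 122 TPM in replicate 1 and 70.9 TPM in replicate 2. Ugp2 and Ugdh, which make UDP-glucose and UDP-glucuronate, stood at 24.1 and 25.5 TPM in replicate 1 and at 18.6 and 15.6 TPM in replicate 2. Miox, the myo-inositol oxygenase of kidney, had 1 count in replicate 1 and 0 in replicate 2.

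Enzymes that use ascorbate were widely expressed. Dbh and Pam were described above with Cyb561. Of the 9 collagen hydroxylases 8 reached 1 TPM in both libraries, and none of 8 tested was 2-fold apart. Of the 8, 7 were higher in replicate 1, beside 48.9% of all genes tested. Plod2, a lysyl hydroxylase, led at 88.3 TPM in replicate 1 and 42.9 TPM in replicate 2, followed by Plod3 at 23.8 and 15.4 TPM and the prolyl hydroxylase subunit P4ha1 at 22.2 and 12.7 TPM. All 4 hydroxylases of the hypoxia-inducible factor reached 1 TPM with none 2-fold apart. Egln2 stood at 26.0 and 19.6 TPM, Egln1 at 15.2 and 16.0 TPM and Hif1an at 8.44 and 6.19 TPM in replicates 1 and 2. Bbox1, the last enzyme of carnitine synthesis and a liver and kidney gene, had 0 counts in replicate 1 and 15 in replicate 2.

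**Figure D4:**
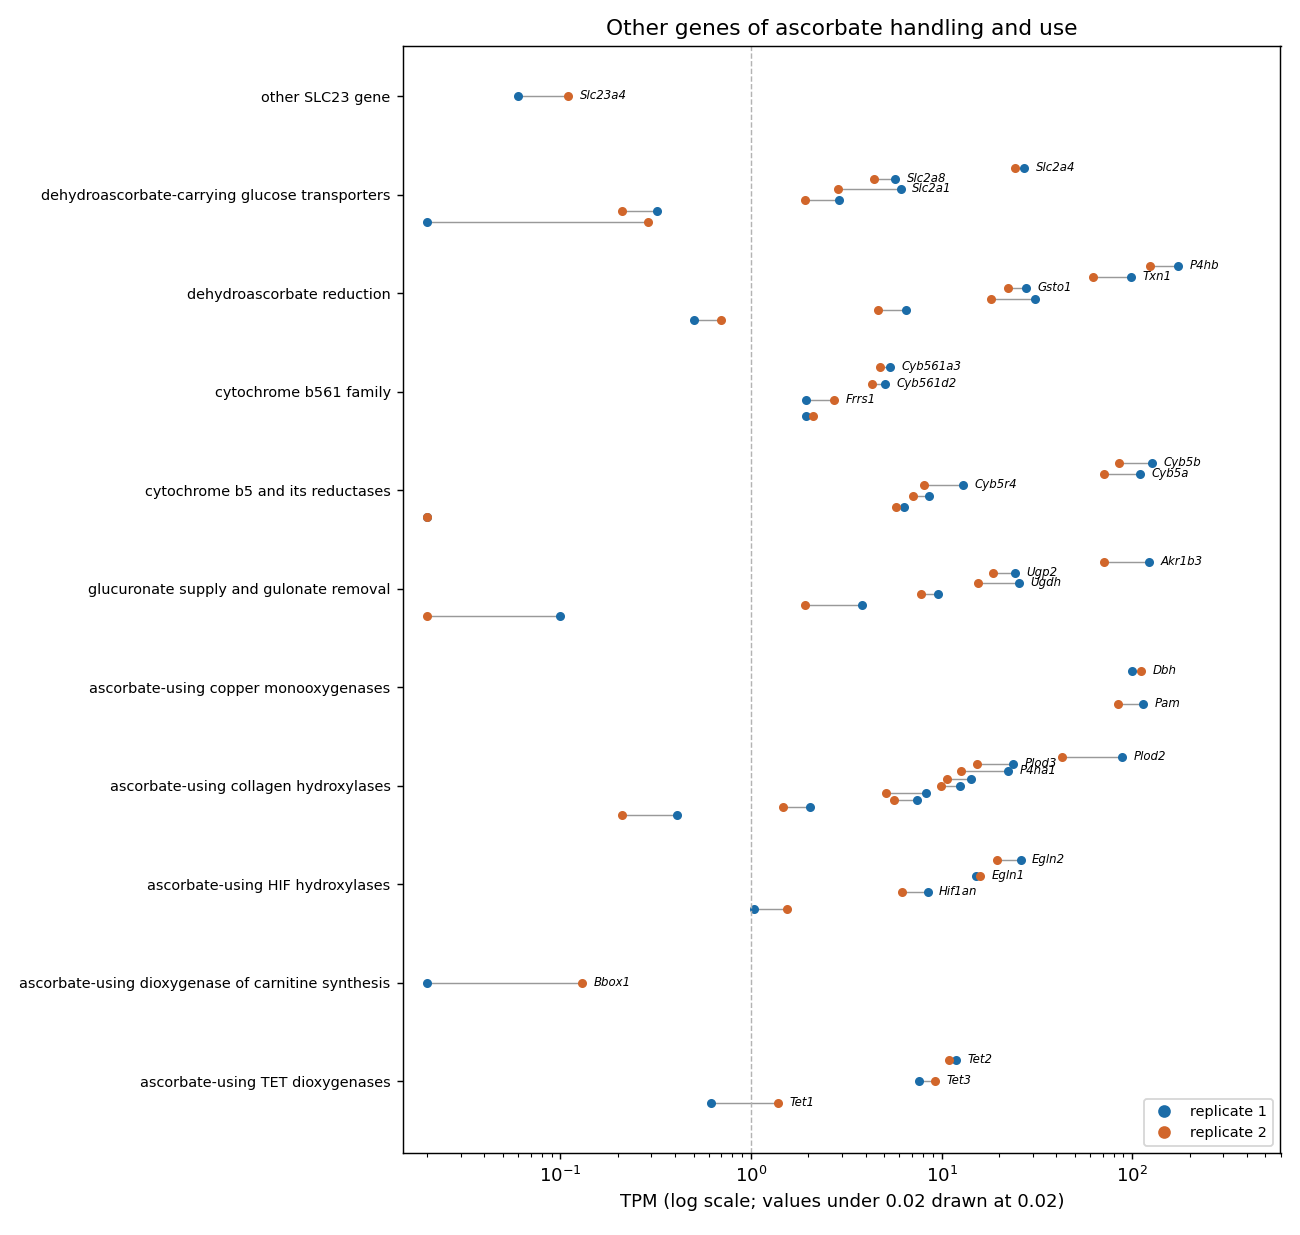
TPM of the 48 other genes in replicate 1 (blue) and replicate 2 (orange) on a log axis, 1 row per gene grouped by list, with the highest 3 of each list named; the dashed line is 1 TPM and values under 0.02 are drawn at 0.02. The highest points belong to P4hb, Cyb5b, Akr1b3, Pam and Dbh. The orange point lies to the left for most genes, as for Plod2 at 88.3 TPM in replicate 1 and 42.9 TPM in replicate 2. In the gene tables, from which these values come, deposited TPM of nuclear protein-coding genes stands on a lower scale in replicate 2. After TMM scaling, 19 of the 40 tested genes were higher in replicate 2 and 21 in replicate 1.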

How the data were processed

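Per the labels, total RNA (300 ng) from adrenal glands was made into directional libraries with ERCC spike-ins. Each library has a gene table and 2 transcript files on mm10 and GENCODE M21. The authors deposited expected counts and TPM derived from a transcriptome alignment (gene table and first transcript file, RSEM layout) and estimated counts and TPM derived from the reads (second transcript file, kallisto layout). The percentage of a gene's TPM per transcript was deposited too, and recomputed here from TPM. Whether strand was used is not stated, and programs and versions were not given in the sources used here. Whether CAST/EiJ alleles were counted less well than reference ones was not tested. Entries naming no gene (26248 tRNA, 96 spike-in and 1 phiX) stayed out of library sizes; spike-ins took 0.843% and 1.50% of the tables.

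Levels are deposited TPM with mean and SD over 2 libraries. Library ratios (replicate 2 over replicate 1) used counts plus 0.5, scaled by TMM (edgeR 4.0.16; factors 1.02 and 0.982), keeping genes whose mean CPM was 1 or more. Exact 95% binomial intervals, on rounded counts, and the 3-count floor are for counting error alone. With 1 library against 1 of the same group no p-value was computed. Genes were counted as apart at 2-fold. The median chi-square of the 2 counts was 6.44 per gene, above counting noise, so the files are not 1 library deposited in duplicate; this does not tell whether the animals differed. The ratio was tested on simulated data that held counting error alone. This cannot test it under the larger spread between these libraries.

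The members and lists were chosen with earlier results of these data known. All 8 members are named, and of each other list the 3 highest by mean TPM and any gene 2-fold apart; a few low genes beyond that rule (Slc2a2, Slc23a4, Cyb5r2, Miox, Bbox1) were named after their values were seen. Of marker lists the leading 2 genes are named; erythroid markers were led by Hba-a1 and Hbb-bs and macrophage markers by Lyz2 and C1qa. Tmlhe was not analysed here. Alternatives were DESeq2 1.42.0 size factors, total or spike-in counts as scaling, other filters, prior counts and thresholds, nuclear protein-coding genes alone, the second transcript file, and each replicate left out. Further software was R 4.3.3, Python 3.11.15, scipy 1.17.1, numpy 2.4.6, matplotlib 3.10.9 and pandas 2.3.3.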

Additional observations from a re-analysis of the deposited data

How the results depend on the processing

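Slc23a2 lay at least 2-fold apart between the libraries under all 9 alternatives of scaling, filter, prior count or file, with log2 ratios from -1.95 to -1.01. Rgn did so under the 8 in which it was kept, though it passed the main filter only through replicate 2. The number of the 8 genes at least 2-fold apart was 2, but 4 by spike-in counts, which add Akr1a1 and Cyb5r3, 3 with no filter on low counts, which adds Slc23a1 from 0 and 10 counts, and 1 with a mean CPM of at least 5, which leaves out Rgn. Over all genes the number was 1012, against 5518 by spike-in counts, 7726 with no filter, 347 with a mean CPM of at least 5 and 2556 at 1.5-fold. The summed TPM of the 8 was 407 in mean, 1481 after rescaling over nuclear protein-coding genes and 938 in the second transcript file, and 314 to 500 with 1 replicate left out. The 407 and the 938 stand on unlike scales. After rescaling, Slc23a2 was at 275 and 135 in replicates 1 and 2 of the gene tables, and at 238 and 115 in the second file. Akr1a1 was at 840 and 714 in the gene tables, and at 1060 and 830 in the second file. The number of genes at 1 TPM or more was 5 to 6 with 1 replicate left out, and 6 after rescaling, which adds Rgn. The number of transcripts with at least 10% of the TPM was 13, and 11 to 12 with 1 replicate left out. That 13 takes in Slc23a1-201 and Slc23a1-202 from replicate 2 alone, at 50.0% and 35.7% from 8.22 and 0.7 expected counts. Of the 13 named transcripts with a share in both libraries of the first file, 10 moved in the second file. The yardstick was the SD between libraries in the first file. That SD was 0 for Slc23a3-201 and Slc23a3-202, from 10 and 7 counts of the gene in replicates 1 and 2. In the second file their mean shares were 72.07% and 27.93%, each with an SD of 28.95. The cause of these shifts was not tested. With 2 libraries, 1 library sets the SD of each level, and depth limits Slc23a1, Slc23a3 and Rgn. The alternative without genes at least 32-fold higher in replicate 2 was chosen after seeing the data and left 934 genes. No paired analysis was possible because the series holds 1 group.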
